A study of Mus musculus with 16 samples.

Results

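The genes followed here across age and genotype in mouse cerebellum were 10 that mark oligodendrocyte precursor cells: Pdgfra, Cspg4, Olig1, Olig2, Gpr17, Ptprz1, C1ql1, Neu4, Vcan and Tnr. They were chosen by name as genes of this cell type, at a time when earlier results of these data were known. All 10 of the 10 were found among the 17074 genes of the normalized count table. RNA-Seq had been performed on cerebellum of female C57BL/6 mice in 4 groups of 4 libraries each: naturally aged (18-month-old) Acsl6-/- mice, naturally aged (18-month-old) control mice, young (2-month-old) Acsl6-/- mice and young (2-month-old) control mice. Acsl6-/- mice lack acyl-CoA synthetase 6, an enzyme that activates polyunsaturated fatty acids for membrane lipids, in every tissue, because floxed animals were crossed to mice with CMV-driven Cre. The other genotype is given as control in the genotype labels and as WT in the sample titles, and is called control here, and the 2 ages were different animals. The comparisons ask how age, the loss of ACSL6 and the combination of both relate to the transcripts of these genes.

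Oligodendrocyte precursors are dividing glial cells spread through gray and white matter that can leave the cell cycle and become myelinating oligodendrocytes throughout adult life. They carry the PDGF alpha receptor and the NG2 proteoglycan, lose both as they commit to differentiation, pass through a short stage marked by the receptor GPR17, and then turn on myelin genes. Most of the 10 genes are not confined to these cells. Pdgfra is also made by fibroblasts and Cspg4 by pericytes, Olig1 and Olig2 stay on in mature oligodendrocytes, Ptprz1 is made by astrocytes and Bergmann glia, Tnr and Vcan are made by other glia and some neurons, and C1ql1 is made by neurons of the inferior olive. These were whole pieces of tissue, so fewer cells of a type and less RNA per cell cannot be told apart.

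The precursor genes split with age. Gpr17 and Neu4 fell in both genotypes, with 18-month levels of Gpr17 at 0.479 times the 2-month level in Acsl6-/- mice and 0.608 times in control mice. Ptprz1 rose slightly, by 1.12-fold in Acsl6-/- mice and 1.13-fold in control mice. Olig1 passed the test as lower only in Acsl6-/- mice and Tnr only in control mice, but the 2 age effects were not shown to differ for either gene. Pdgfra and Cspg4, the genes most used to count precursors, passed the test in neither genotype, with fold changes of 0.935 and 0.929 in Acsl6-/- mice and 0.998 and 1.01 in control mice. No member passed the test between Acsl6-/- and control mice at either age.

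**Figure D1:**
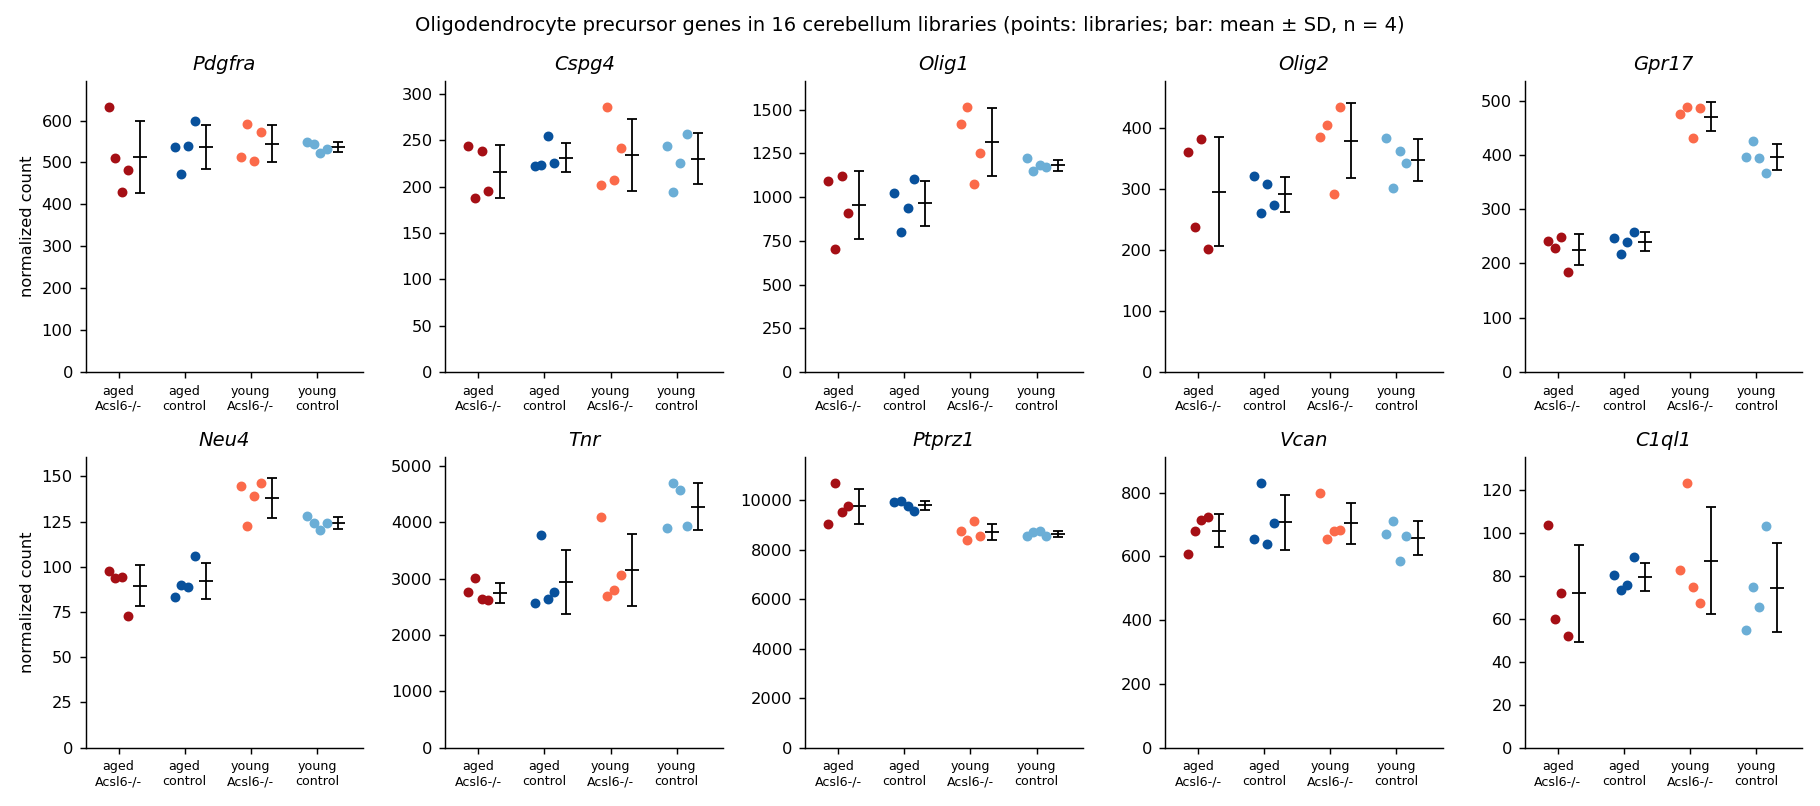
Normalized count (vertical axes, starting at 0) of each of the 10 genes in the 4 libraries of aged Acsl6-/-, aged control, young Acsl6-/- and young control mice. Points are libraries and the bars are the mean ± SD (n = 4). The 8 aged libraries lie below the 8 young libraries for Gpr17 and Neu4, while the groups overlap for Pdgfra, Cspg4, Vcan and C1ql1.

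All 10 members had a mean of at least 10 normalized counts over the 16 libraries and entered the test. A gene was called at a Benjamini-Hochberg adjusted p under 0.05 over 17042 genes, in a limma fit of log2(normalized count + 1) to all 4 groups, and fold changes are on that scale. For age in Acsl6-/- mice 4 of 10 members were called, 3 lower and 1 higher, where 23.2% of all tested genes were called (1976 lower and 1981 higher). For age in control mice 4 of 10 members were called, again 3 lower and 1 higher, where 31.3% of all tested genes were called (2723 lower and 2610 higher). Between genotypes 0 of 10 members were called at 18 months, where 0.241% of all genes were called, and 0 of 10 at 2 months, where 0.211% were. The genotype by age interaction, the difference between the 2 age effects (that of Acsl6-/- minus that of control mice), was called for 0 of 10 members and for 0.0176% of all genes. At an unadjusted p under 0.05 0 of 10 members stood between genotypes at 18 months (9.15% of all genes), 2 of 10 at 2 months (12.1%) and 2 of 10 for the interaction (10%). edgeR and DESeq2 on recovered reads called no member in these 3 comparisons. The members' median log2 change with age was -0.23 in Acsl6-/- mice and -0.13 in control mice. Over all tested genes these medians were -0.00015 and 0.0060. The log2 difference of Acsl6-/- from control mice was above 0 for 9 of 10 members at 2 months (median 0.10, all genes -0.0016). At 18 months it was above 0 for 0 of 10 (median -0.062, all genes 0.0027). Astrocyte genes, described below, moved the same way, with 12 of 13 and then 3 of 13 above 0. Granule cell genes moved the other way, with 4 of 11 and then 8 of 11. Members share the same libraries, so these counts are a description and were not tested.

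**Figure D2:**
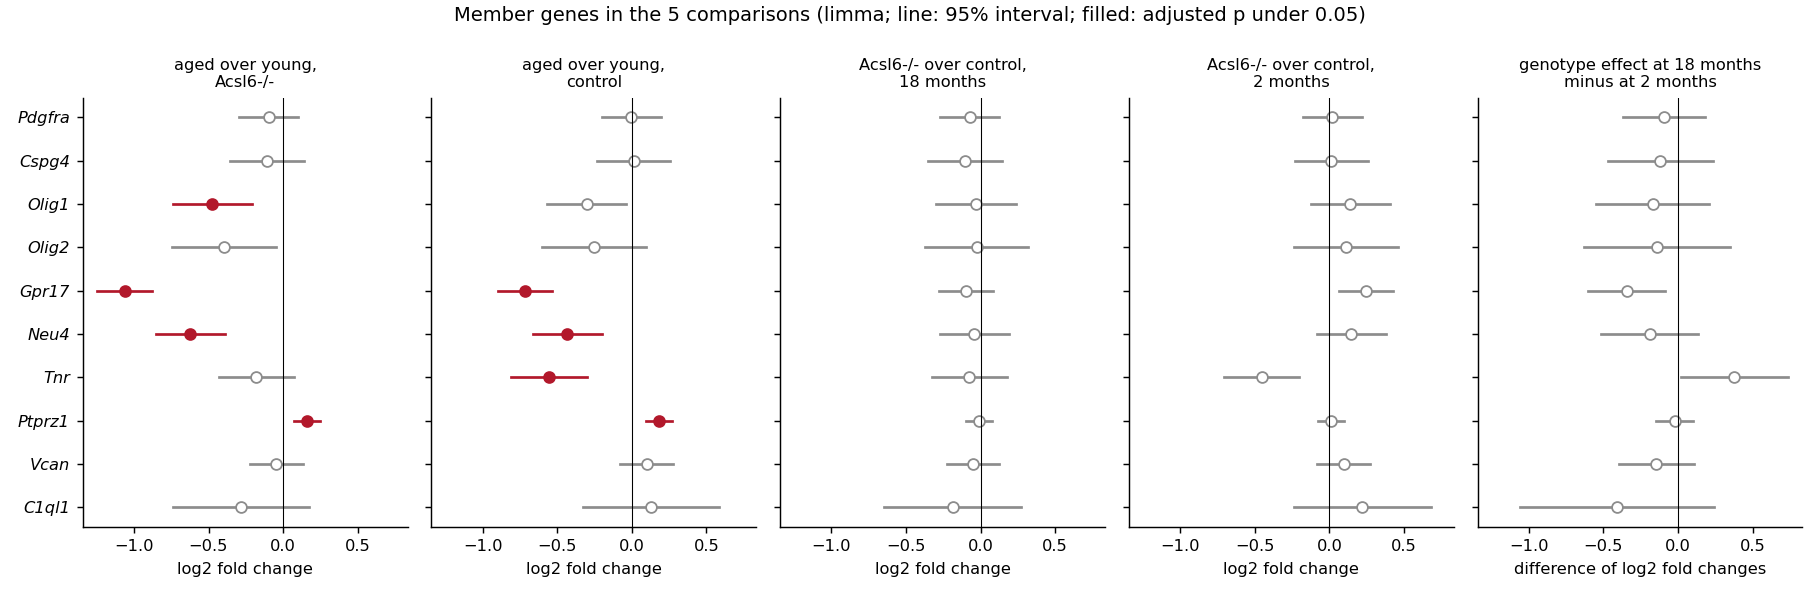
Log2 fold change (horizontal axis) of each member in the 5 comparisons, with its 95% interval from limma, where filled red points have an adjusted p under 0.05. Gpr17, Neu4, Olig1 and Ptprz1 are filled for age in Acsl6-/- mice and Gpr17, Neu4, Tnr and Ptprz1 for age in control mice, and no point is filled in the 3 other panels.

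The ranges of the libraries were also compared with no model. The 4 aged and the 4 young libraries did not overlap for 2 of 10 members in Acsl6-/- mice (Gpr17 and Neu4), against 23.7% of all tested genes, and for 5 of 10 in control mice (Gpr17, Neu4, Olig1, Tnr and Ptprz1), against 30.3%. Acsl6-/- and control libraries did not overlap for 0 of 10 members at 18 months, against 5.17% of all genes, and for 1 of 10 at 2 months (Gpr17), against 6.65%.

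The libraries were of similar depth, with 16953548 to 27569428 reads in genes. Acsl6 itself was at 2101 to 2276 normalized counts in aged Acsl6-/- libraries, against 5839 to 6086 in aged controls, and at 2248 to 2336 in young Acsl6-/- libraries, against 6296 to 6973 in young controls, so every library went with its genotype label. The log2 difference of Acsl6 was -1.46 at 18 months and -1.56 at 2 months. There were 5 libraries with the choroid plexus transcript Ttr above 5000 normalized counts: aged Acsl6-/- 1, aged control 3, aged control 4, young control 1 and young control 4. Aged control 3 also had 8.21% of its counts in its 10 most abundant genes, against 4.18% to 4.83% in the other libraries. The transcript Gm42418 was at 686717 normalized counts in aged control 3, against 11003 to 41707 in the other libraries.

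Levels of different genes are compared here per kb of exon. Averaged over the 16 libraries, Ptprz1 was the most abundant member at 648 normalized counts per kb, followed by Olig1 at 511, Tnr at 255, Olig2 at 129.9, Gpr17 at 64.1, C1ql1 at 53.2, Pdgfra at 53.2, Vcan at 47.5, Neu4 at 23.9 and Cspg4 at 19.1. Only 2 steps in this order separated all libraries, the step between Tnr and Olig2 and the step between Vcan and Neu4. All other neighbors overlapped. Ptprz1 was above 91.8% of all genes with a known length and Cspg4 above 20.4%. Counting error differs accordingly: a library held 7109 to 12769 reads of Ptprz1, but 158 to 333 of Cspg4, 70 to 152 of Neu4 and 47 to 118 of C1ql1.

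**Figure D3:**
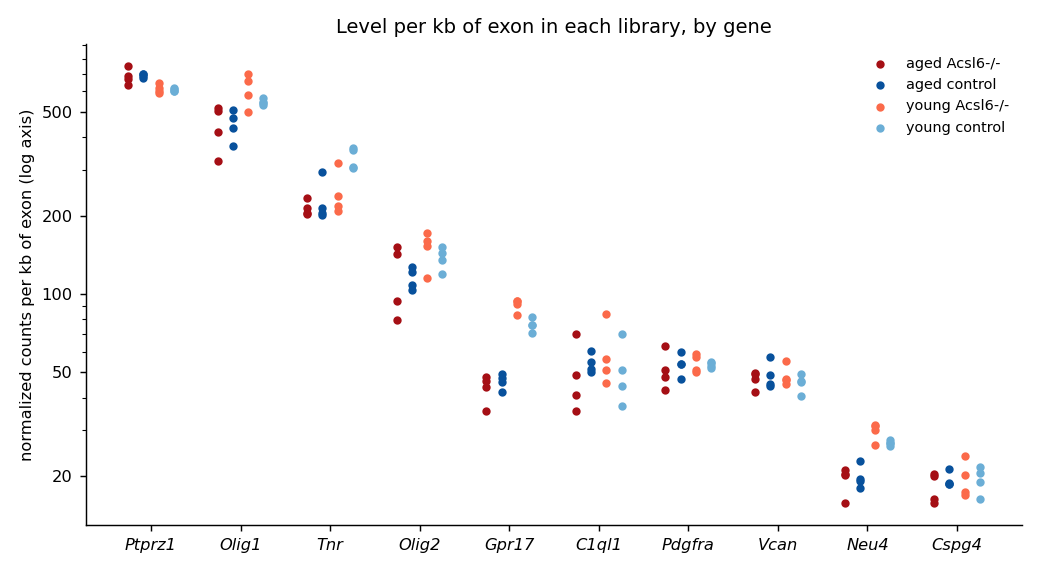
Normalized counts per kb of exon (vertical log axis) for each member, in order of the mean over the 16 libraries, with 1 point per library and colors for the 4 groups. Ptprz1 is highest with a mean of 648 per kb and Cspg4 lowest with 19.1 per kb. Gpr17 and Neu4 show the aged libraries as a separate lower cluster.

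The surface proteins that define the precursor stage are the receptor Pdgfra and the proteoglycan Cspg4. Pdgfra (chr5:75152292-75198215 on the plus strand of GRCm38, 23 exons in its longest transcript) encodes the receptor through which PDGF-AA drives precursor division and survival. Its normalized counts were 631, 510.4, 429 and 483 in aged Acsl6-/- libraries, against 512, 591, 504 and 573 in young Acsl6-/- libraries. In control mice they were 537, 472, 539.5 and 599 in aged libraries, against 548, 543, 523 and 532 in young libraries. The young control libraries were tightly grouped, with a coefficient of variation of 2.15%, and each other group reached both above and below them. The log2 change with age was -0.10 in Acsl6-/- mice (95% interval -0.29 to 0.10, limma adjusted p = 0.494) and -0.0031 in control mice (-0.20 to 0.19, adjusted p = 0.986). The interval in control mice thus leaves out falls larger than 0.20 on the log2 scale. Between genotypes the log2 difference was -0.074 at 18 months (-0.27 to 0.12) and 0.020 at 2 months (-0.18 to 0.22).

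Genes of fibroblasts, the other main source of Pdgfra, were measured beside it. Of 11 fibroblast genes, 1 was called higher and 0 lower with age in Acsl6-/- mice (23.2% of all genes called). Control mice had 6 called higher and 0 lower (31.3% of all genes), and 2 higher without the 5 libraries high in Ttr. Their summed level was 3349 to 5814 normalized counts in aged Acsl6-/- libraries, against 3677 to 5270 in young Acsl6-/- libraries, and 4254 to 6239 in aged control libraries, against 3628 to 4101 in young control libraries. None of the 11 was at 0 in any library. Lum, a matrix proteoglycan of fibroblasts, changed by 1.49 on the log2 scale in control mice (adjusted p = 0.000138). The part of these cells in the level of Pdgfra was not tested.

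Cspg4 (chr9:56865033-56899870, plus strand, 10 exons) encodes NG2, the proteoglycan by which precursors are usually stained. Aged Acsl6-/- libraries had 244, 188, 238 and 195 normalized counts, against 201, 285, 207 and 241 in young Acsl6-/- libraries. Aged control libraries had 223, 223, 255 and 225, against 244, 194, 226 and 257 in young control libraries. All 4 groups overlapped. The log2 change with age was -0.11 in Acsl6-/- mice (95% interval -0.35 to 0.14, adjusted p = 0.558) and 0.012 in control mice (-0.24 to 0.26, adjusted p = 0.952), and the differences between genotypes were -0.10 at 18 months and 0.015 at 2 months. Pericyte and smooth muscle genes mark the other cells with NG2. With age 4 of 12 were called higher in Acsl6-/- mice, where 23.2% of all genes were called. Control mice had 5 of 12 higher (31.3% of all genes), and 2 of 12 without the libraries high in Ttr. None of these genes was called lower. Their summed level was 6133 to 7030 in aged Acsl6-/- libraries, against 5747 to 6342 in young Acsl6-/- libraries, and 7016 to 7562 in aged control libraries, against 5788 to 6411 in young control libraries. None of the 12 was at 0 in a library, and their part in the level of Cspg4 was not tested.

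The 2 basic helix-loop-helix factors Olig1 and Olig2, which specify the lineage and neighbor each other on chromosome 16, had lower means at 18 months. Olig1 (chr16:91269772-91271933, plus strand, 1 exon) promotes maturation and repair of myelin. In Acsl6-/- mice its normalized counts were 1090.1, 701, 1121 and 907 in aged libraries, against 1417, 1512, 1075 and 1253 in young libraries, with 2 aged libraries above the lowest young one. In control mice they were 1021, 799.7, 937 and 1103 in aged libraries, against 1226, 1152, 1183 and 1171 in young libraries, with no overlap between the ages. The log2 change with age was -0.47 ± 0.13 (SE) in Acsl6-/- mice (adjusted p = 0.011), which was called, and -0.30 ± 0.13 in control mice (adjusted p = 0.0771), which was not. The adjusted p in control mice was under the threshold when aged control 4 was left out (adjusted p = 0.0499), when aged Acsl6-/- 2 was left out of the shared spread (0.0299), and when only the control groups were fitted (0.0139). The difference between the 2 age effects was -0.17 (95% interval -0.55 to 0.21, adjusted p = 0.791).

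Olig2 (chr16:91225457-91228677, plus strand, 2 exons) is required to make precursors at all. Aged Acsl6-/- libraries had 361, 237, 383 and 201 normalized counts, against 386, 405, 292 and 434 in young Acsl6-/- libraries. Aged control libraries had 322, 261, 308 and 274, against 384, 302, 363 and 343 in young control libraries. The aged Acsl6-/- group was the most variable, with 2 libraries near the young level and 2 far under it, a coefficient of variation of 30.3%. The log2 change was -0.39 in Acsl6-/- mice (95% interval -0.74 to -0.047, adjusted p = 0.0947) and -0.25 in control mice (-0.60 to 0.094, adjusted p = 0.259). In Acsl6-/- mice the adjusted p was 0.0404 without aged Acsl6-/- 1, 0.0227 without aged Acsl6-/- 3 and 0.0408 without young Acsl6-/- 3. Between genotypes the log2 differences of Olig1 and Olig2 were -0.030 and -0.027 at 18 months and 0.14 and 0.11 at 2 months, none of them called.

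Gpr17, a G protein-coupled receptor that appears as precursors commit to differentiation and must be shut off before they myelinate, changed more with age than any other member. Its normalized counts were 241, 228, 249 and 185 in aged Acsl6-/- libraries, against 475, 487, 431 and 487 in young Acsl6-/- libraries. They were 247, 217, 239.5 and 257 in aged control libraries, against 396, 425, 394 and 367 in young control libraries. Every aged library was thus below every young library of either genotype. The log2 change with age was -1.06 ± 0.087 (SE) in Acsl6-/- mice (95% interval -1.24 to -0.88, adjusted p = 2.03e-07), where Gpr17 ranked 22 of 17042 genes by p, and -0.72 ± 0.087 in control mice (-0.90 to -0.54, adjusted p = 9.50e-06), where it ranked 224. Both calls held in each of 27 alternative analyses, with adjusted p at most 2.75e-05 in Acsl6-/- mice and 0.000959 in control mice.

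The genotypes stood in opposite order for Gpr17 at the 2 ages, but no difference between them was called. At 18 months aged Acsl6-/- libraries averaged 226 ± 28.6 and aged control libraries 240.4 ± 16.9 normalized counts (SD, n = 4 each), a log2 difference of -0.097 (95% interval -0.28 to 0.084, adjusted p = 0.804). At 2 months young Acsl6-/- libraries averaged 470.1 ± 26.5 and young control libraries 396 ± 23.7, and the 4 libraries of each group did not overlap. That log2 difference was 0.25 (95% interval 0.067 to 0.43, adjusted p = 0.253), and its adjusted p ranged from 0.118 to 0.551 over the alternatives. The interaction was -0.35 ± 0.12 (SE, adjusted p = 0.352), and 0.220 was the lowest adjusted p in any alternative. The exons of Gpr17 overlap 188 bases of Lims2 on the opposite strand, and the strand used for counting was not stated, so reads there cannot be assigned. Lims2 was at 123 to 183 normalized counts and changed with age by -0.12 in Acsl6-/- mice and 0.25 in control mice (adjusted p = 0.497 and 0.112).

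Neu4 (chr1:94020451-94028334, plus strand, 4 exons), a sialidase that trims sialic acid from glycoproteins and gangliosides, moved in the direction of Gpr17. Its normalized counts were 97.9, 93.6, 94.1 and 73.0 in aged Acsl6-/- libraries, against 145, 122, 139 and 146 in young Acsl6-/- libraries, and 83.4, 90.1, 88.8 and 106 in aged control libraries, against 128, 124, 121 and 124 in young control libraries. No aged library reached the lowest young one. The log2 change with age was -0.62 ± 0.11 (SE) in Acsl6-/- mice (adjusted p = 0.000509) and -0.43 ± 0.11 in control mice (adjusted p = 0.006). The call in control mice was lost when the 5 libraries high in Ttr were left out, which left 2 aged and 2 young control libraries (log2 change -0.49, adjusted p = 0.0534), and held in the other 26 alternatives. Genotype differences were -0.042 at 18 months and 0.15 at 2 months, and the interaction was -0.19 (adjusted p = 0.715).

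**Figure D4:**
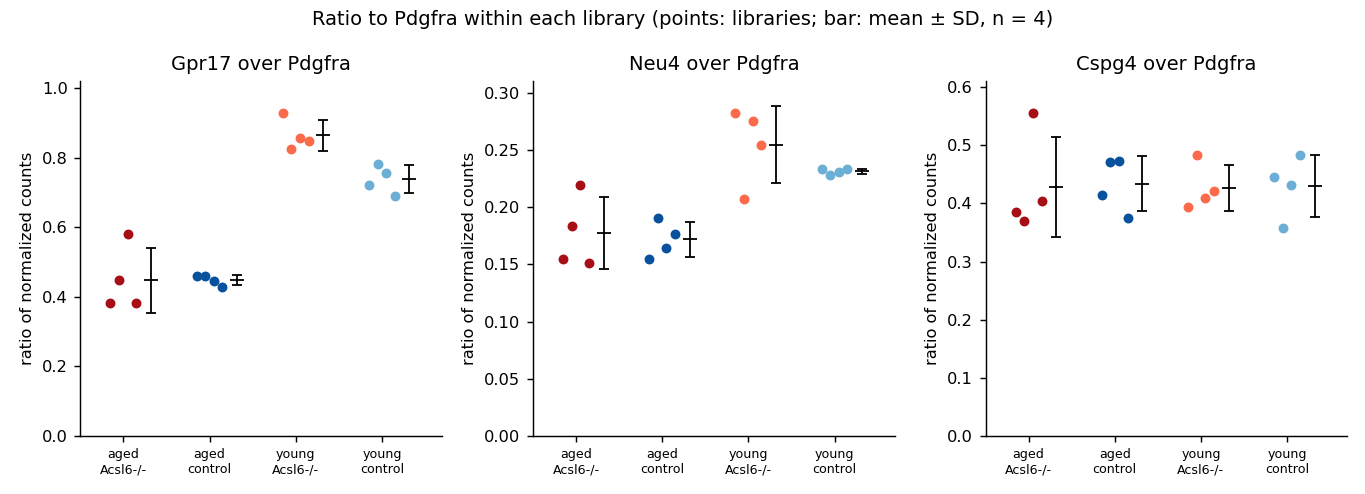
Ratio of the normalized counts of Gpr17, Neu4 and Cspg4 to those of Pdgfra in the same library (vertical axes, starting at 0), with points for libraries and bars for the mean ± SD (n = 4). The Gpr17 ratio is 0.381 to 0.580 in the 8 aged libraries and 0.691 to 0.927 in the 8 young ones, and the Cspg4 ratio overlaps between all groups.

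The separation from Pdgfra shows within single libraries. Gpr17 over Pdgfra was 0.381, 0.448, 0.580 and 0.382 in aged Acsl6-/- libraries, against 0.927, 0.825, 0.855 and 0.849 in young Acsl6-/- libraries. It was 0.460, 0.460, 0.444 and 0.429 in aged control libraries, against 0.722, 0.783, 0.755 and 0.691 in young control libraries. Neu4 over Pdgfra averaged 0.177 ± 0.031 in aged Acsl6-/- libraries, against 0.255 ± 0.034 in young Acsl6-/- libraries, and 0.172 ± 0.015 in aged control libraries, against 0.231 ± 0.0024 in young control libraries (SD, n = 4 each). Cspg4 over Pdgfra stayed near its young value, at 0.429 ± 0.086 in aged Acsl6-/- libraries, against 0.427 ± 0.039 in young Acsl6-/- libraries, and 0.434 ± 0.047 in aged control libraries, against 0.430 ± 0.053 in young control libraries. These ratios were chosen after the values were seen and are given as a description, with no test.

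Tnr, Vcan and Ptprz1 belong to the matrix around precursors and neurons. Tnr (chr1:159523769-159931729, plus strand, 23 exons) encodes tenascin-R, a glycoprotein of perineuronal nets and nodes of Ranvier. Its normalized counts were 2760, 3002, 2631 and 2619 in aged Acsl6-/- libraries, against 4088, 2686, 2791 and 3064 in young Acsl6-/- libraries. Aged control libraries had 2576, 3774, 2630.2 and 2759, against 3903, 4692, 4579 and 3937 in young control libraries. The young control group was highest, and 1 library in each of 2 other groups, aged control 2 and young Acsl6-/- 1, lay well above its 3 companions. With age the log2 change was -0.56 ± 0.12 (SE) in control mice (adjusted p = 0.00187), which was called in all 27 alternatives, and -0.18 ± 0.12 in Acsl6-/- mice (adjusted p = 0.309), which was called in none.

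Between genotypes at 2 months Tnr had the lowest p of any member. Young Acsl6-/- libraries averaged 3157 ± 641 normalized counts and young control libraries 4278 ± 416 (SD, n = 4 each), a log2 difference of -0.45 (95% interval -0.71 to -0.20, adjusted p = 0.118). It was not called, but was called when young Acsl6-/- 1 was left out (log2 difference -0.58, adjusted p = 0.0152) and when aged control 2 was left out of the shared spread (adjusted p = 0.0442). At 18 months the difference was -0.076 (-0.33 to 0.18, adjusted p = 0.908), and the interaction was 0.38 (95% interval 0.020 to 0.73, adjusted p = 0.473).

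Ptprz1 (chr6:22875502-23052916, plus strand, 30 exons) encodes a receptor tyrosine phosphatase that carries chondroitin sulfate and keeps precursors undifferentiated until its ligand pleiotrophin binds. Aged Acsl6-/- libraries had 9046, 10698, 9529 and 9757 normalized counts, against 8781, 8389, 9169 and 8571 in young Acsl6-/- libraries, where a single young library exceeded the lowest aged one. Aged control libraries had 9925, 9986, 9772 and 9574, all above the 8544, 8740, 8765 and 8552 of young control libraries. The log2 change was 0.16 ± 0.043 (SE) in Acsl6-/- mice (adjusted p = 0.0109) and 0.18 ± 0.043 in control mice (adjusted p = 0.00335), and both calls held in all 27 alternatives. Astrocyte and Bergmann glia genes mark the other cells with Ptprz1. With age 3 of 13 were called higher and 2 lower in Acsl6-/- mice, where 23.2% of all genes were called. Control mice had 5 higher and 2 lower (31.3% of all genes), and 3 higher and 0 lower without the libraries high in Ttr. On the log2 scale Gfap changed by 1.08 in Acsl6-/- mice and 1.51 in control mice, and Aqp4 by 0.67 and 0.95. Fabp7 changed by -0.58 and -0.46, and Slc1a3 by -0.16 and -0.14, and all of these were called. The summed level of the 13 genes, led by Aldoc and Slc1a3, overlapped between the ages. It was 101412 to 111189 in aged Acsl6-/- libraries, against 108235 to 111939 in young Acsl6-/- libraries. Aged control libraries had 105643 to 107746, against 102030 to 113288 in young control libraries. None of the 13 was at 0 in a library, and their part in the level of Ptprz1 was not tested.

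Vcan (chr13:89655312-89742509, minus strand, 15 exons) encodes versican, a large matrix proteoglycan that gathers at nodes of Ranvier. Its normalized counts were 608, 681, 713 and 722 in aged Acsl6-/- libraries, against 798, 655, 678 and 682 in young Acsl6-/- libraries, and 655, 829, 639.8 and 705 in aged control libraries, against 669, 712, 586 and 664 in young control libraries. All groups overlapped, and the log2 change was -0.045 (95% interval -0.22 to 0.13) in Acsl6-/- mice and 0.10 (-0.077 to 0.28) in control mice, neither called. C1ql1 (chr11:102939264-102946688, minus strand, 2 exons) encodes a secreted C1q-like protein that instructs climbing fiber synapses on Purkinje cells through the receptor Adgrb3. It had the fewest reads and the widest intervals: 104, 60.2, 72.1 and 52.2 normalized counts in aged Acsl6-/- libraries, against 83.1, 123, 75.1 and 67.3 in young Acsl6-/- libraries, and 80.6, 73.6, 75.8 and 88.7 in aged control libraries, against 54.7, 75.0, 65.6 and 103 in young control libraries. The log2 change of C1ql1 was -0.28 (95% interval -0.74 to 0.18) in Acsl6-/- mice and 0.13 (-0.33 to 0.59) in control mice, and neither was called.

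Promoter sequence was looked up for the members in the RefSeq table of GRCm38.p6 and found for 7 of 10 (Pdgfra, Cspg4, Olig2, Ptprz1, Neu4, Vcan and Tnr). The 250 bases before the RefSeq start site are shown, 5′ to 3′ on the gene's strand. They are given for Neu4, which fell with age in both genotypes, and for Tnr, which fell in control mice. Ptprz1, which rose in both, and Olig2, the only one of these 7 with 2 of the motifs searched, are also shown. Gene positions given above are from GENCODE, and the windows of Neu4 and Olig2 run past those starts (94020451 and 91225457). Both matches in Olig2 lie past its GENCODE start. Capitals mark matches on either strand to CAGCTG (an E-box), ACAAAG or ACAATG (SOX motifs, read as CTTTGT and CATTGT on the other strand) and TATAAA (read as TTTATA on the other strand).
Neu4 (chr1:94020243-94020492, plus strand): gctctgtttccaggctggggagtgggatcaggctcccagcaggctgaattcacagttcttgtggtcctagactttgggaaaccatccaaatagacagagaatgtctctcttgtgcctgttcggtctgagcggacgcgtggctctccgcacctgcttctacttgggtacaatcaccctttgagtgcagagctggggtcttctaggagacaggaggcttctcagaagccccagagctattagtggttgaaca
Tnr (chr1:159523519-159523768, plus strand): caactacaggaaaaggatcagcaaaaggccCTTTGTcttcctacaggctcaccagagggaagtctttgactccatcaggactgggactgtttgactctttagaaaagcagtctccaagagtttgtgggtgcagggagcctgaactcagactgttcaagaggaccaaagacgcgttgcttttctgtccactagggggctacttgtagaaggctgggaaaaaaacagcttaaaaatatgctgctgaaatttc
Ptprz1 (chr6:22875252-22875501, plus strand): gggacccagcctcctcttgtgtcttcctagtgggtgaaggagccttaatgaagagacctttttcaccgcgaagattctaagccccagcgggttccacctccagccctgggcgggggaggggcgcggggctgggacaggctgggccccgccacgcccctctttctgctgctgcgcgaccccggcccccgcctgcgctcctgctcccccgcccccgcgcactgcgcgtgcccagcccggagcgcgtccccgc
Olig2 (chr16:91225300-91225549, plus strand): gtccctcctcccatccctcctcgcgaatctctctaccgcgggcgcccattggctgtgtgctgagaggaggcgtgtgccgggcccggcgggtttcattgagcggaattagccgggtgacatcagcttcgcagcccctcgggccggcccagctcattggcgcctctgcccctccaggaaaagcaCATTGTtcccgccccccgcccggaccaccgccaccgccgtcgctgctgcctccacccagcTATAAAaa

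None of the 7 sequences held CAGCTG, which 4271 of 32851 promoters of that length hold. Olig2 held 1 match to ACAATG, present in 10.7% of all promoters, and 1 to TATAAA, present in 12.4%. Tnr held 1 match to ACAAAG, present in 16.5%, and the 5 other members held no match to any of the 4 motifs, none of which overlaps another in these windows. Base composition differed more. Ptprz1 and Olig2, at 71.6% and 66.8% G and C with 22 CG dinucleotides each, were far above the median of 52.4% for all promoters, whereas Neu4 had 53.6% with 5 and Tnr 46.8% with 2.

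Within groups the members did not vary as 1 block. After each group's mean was subtracted from the log2 values of the 16 libraries, the Pearson's r of Gpr17 was 0.71 with Olig2, 0.60 with Neu4 and 0.52 with Olig1, while that of Pdgfra was 0.46 with C1ql1, 0.38 with Gpr17 and 0.33 with Cspg4. Ptprz1 ran opposite to Olig1, with r = -0.85, and Vcan ran with Tnr, with r = 0.64. The 5 genes outside the members most like Pdgfra were Prmt1 (r = 0.91), Sh3tc2 (0.88), Lamc3 (0.86), Pdlim3 (0.84) and Fbn2 (0.83). Of the other members C1ql1 came highest by this measure, at rank 1239 of 17041 genes, followed by Gpr17 at 2072, Olig1 at 2569, Cspg4 at 2629, Neu4 at 3585, Olig2 at 3983, Tnr at 14172, Ptprz1 at 16462 and Vcan at 16769. These are descriptions over 16 libraries that share their depth and their dissection with all other genes.

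Genes of the same lineage were then counted stage by stage. Of 19 other genes enriched in precursors, 1 was called higher and 2 lower with age in Acsl6-/- mice, where 23.2% of all genes were called. Counts in control mice were 7 higher and 2 lower, where 31.3% of all genes were called. The transcription factor Sox5, which holds precursors immature, rose in both genotypes, by 0.20 in Acsl6-/- mice (adjusted p = 0.0136) and by 0.28 in control mice (adjusted p = 0.00083) on the log2 scale. Its partner Sox6 rose in control mice, with 319 to 350.5 normalized counts in aged control libraries, against 204 to 265 in young control libraries, a log2 change of 0.51 (adjusted p = 0.000112). In Acsl6-/- mice Sox6 changed by 0.056 (adjusted p = 0.654), and the difference between the genotypes was not called (interaction -0.45, adjusted p = 0.177). Megf11 fell in both, by 0.16 in Acsl6-/- mice and by 0.19 in control mice on the log2 scale. The median log2 change of the 19 genes was 0.0035 in Acsl6-/- mice and 0.13 in control mice. Without the 5 libraries high in Ttr the counts were 1 higher and 2 lower in Acsl6-/- mice and 3 higher and 0 lower in control mice.

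Committed and newly formed oligodendrocytes are the stage that Gpr17 marks. Of 13 such genes tested, 4 were called lower and 0 higher with age in Acsl6-/- mice, where 23.2% of all genes were called. For control mice the counts were 2 lower and 0 higher, where 31.3% of all genes were called. Fyn, a kinase that starts process outgrowth, fell by 0.26 in Acsl6-/- mice (adjusted p = 7.91e-05) and by 0.31 in control mice (adjusted p = 9.96e-06) on the log2 scale. Enpp6, a choline phosphodiesterase typical of newly formed cells, had 178, 165, 179 and 189 normalized counts in aged Acsl6-/- libraries, against 279, 307, 212 and 252 in young Acsl6-/- libraries. It changed by -0.55 there (adjusted p = 0.00574), with no overlap between the ages, and by -0.14 in control mice (adjusted p = 0.454). Nkx6-2 fell by 0.51 on the log2 scale in Acsl6-/- mice (adjusted p = 0.0185), and its change in control mice was -0.24 (adjusted p = 0.228). The median log2 change of the 13 genes was -0.23 in Acsl6-/- mice and -0.029 in control mice. Without the 5 libraries high in Ttr both counts were the same, and the medians were -0.24 and -0.20 in Acsl6-/- and control mice, so the gap between the genotypes was smaller.

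Of 21 mature oligodendrocyte and myelin genes, 11 were called lower and 0 higher with age in Acsl6-/- mice (23.2% of all genes called). For control mice the counts were 4 lower and 3 higher (31.3% of all genes). Opalin, a membrane protein of myelinating cells, had 81.2, 61.3, 84.5 and 85.6 normalized counts in aged Acsl6-/- libraries, against 174, 256, 173 and 151 in young Acsl6-/- libraries, and 83.4, 54.9, 91.1 and 109 in aged control libraries, against 133, 124, 126 and 147 in young control libraries. Its log2 change was -1.24 in Acsl6-/- mice (adjusted p = 0.000103) and -0.68 in control mice (adjusted p = 0.00861). Tspan2 and Cldn11, a tetraspanin and the claudin of myelin, fell in both genotypes. Mal fell in Acsl6-/- mice by 0.64 on the log2 scale (adjusted p = 0.000101), and its change in control mice was -0.23 (adjusted p = 0.0692). Car2, Ermn and Klk6 rose in control mice, by 0.28, 0.48 and 0.45 on the log2 scale. The median log2 change of the 21 genes was -0.38 in Acsl6-/- mice and -0.14 in control mice. The difference between these age effects was tested gene by gene. The interaction was called for 0 of 21 genes, with a median of -0.31, against 0.0054 over all genes. Its median was -0.32 for fibroblast, -0.18 for pericyte and smooth muscle, -0.13 for astrocyte and -0.043 for Purkinje cell genes. It was 0.13 for granule cell and choroid plexus, 0.053 for endothelial, 0.044 for microglia and 0.026 for interneuron genes. At 2 months the log2 difference of Acsl6-/- from control mice was above 0 for 21 of 21 genes (median 0.23, all genes -0.0016). At 18 months it was above 0 for 3 of 21 (median -0.090, all genes 0.0027), and none of the 21 was called at either age. The difference at 2 months was also above 0 for 10 of 10 microglia, 12 of 13 astrocyte and 8 of 9 Purkinje cell genes. It was above 0 for 1 of 7 interneuron and 1 of 9 endothelial genes. Without the 5 libraries high in Ttr, 12 of the 21 myelin genes were lower and 0 higher with age in Acsl6-/- mice. Control mice then had 5 lower and 0 higher.

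**Figure D5:**
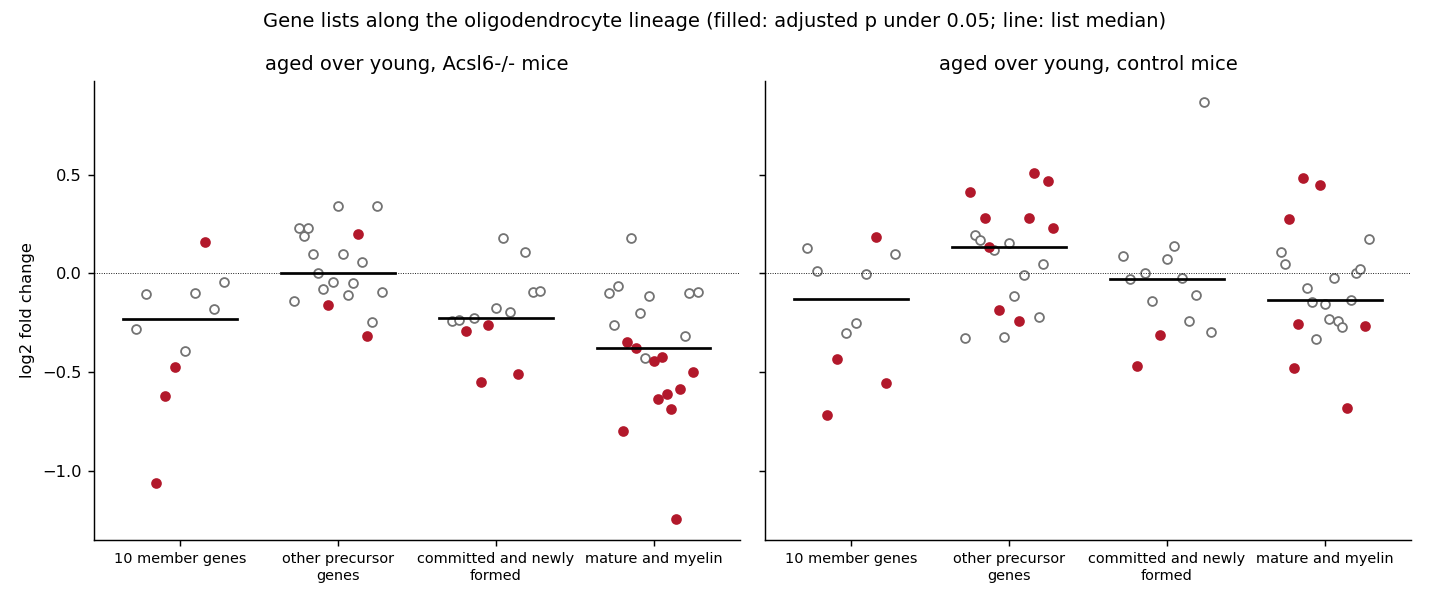
Log2 fold change with age (vertical axis, aged over young) of the 10 members, 19 other precursor genes, 13 committed and newly formed oligodendrocyte genes and 21 mature and myelin genes, in Acsl6-/- mice (left) and control mice (right). Each point is a gene, filled at an adjusted p under 0.05, and each line is a list's median, which for mature genes lies at -0.38 in Acsl6-/- mice and -0.14 in control mice.

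Of 17 growth factors and receptors that act on precursors, 3 were called higher and 3 lower with age in Acsl6-/- mice (23.2% of all genes called). Counts in control mice were 5 higher and 2 lower (31.3% of all genes). Pdgfa, the ligand of the PDGF alpha receptor, which was named here for that role after its values were seen, was at 445, 340, 430 and 387 normalized counts in aged Acsl6-/- libraries, against 431, 406, 379 and 362 in young Acsl6-/- libraries, and at 405, 378, 396 and 436 in aged control libraries, against 453, 392, 385 and 375 in young control libraries. Its log2 change was 0.018 in Acsl6-/- mice and 0.011 in control mice, with a standard error of 0.086. Fgf2, a mitogen for the same cells, had 215, 254, 198 and 238 in aged Acsl6-/- libraries, against 173, 161, 125 and 158 in young Acsl6-/- libraries, and 194, 201, 235 and 208 in aged control libraries, against 156, 134, 144 and 169 in young control libraries. It rose by 0.56 in Acsl6-/- mice (adjusted p = 0.00136) and by 0.47 in control mice (adjusted p = 0.00328) on the log2 scale. Fgf1 rose by 0.26 in Acsl6-/- mice and by 0.18 in control mice, and the neuregulin receptor Erbb4 fell by 0.56 in Acsl6-/- mice and by 0.64 in control mice. Without the 5 libraries high in Ttr, 3 of the 17 were higher and 3 lower in Acsl6-/- mice and 1 higher and 1 lower in control mice.

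The list of ligands, binding partners and relatives of the matrix and surface members held 20 tested genes. With age 1 was called higher and 3 lower in Acsl6-/- mice, where 23.2% of all genes were called. Control mice had 2 higher and 2 lower, where 31.3% of all genes were called. Pleiotrophin (Ptn), the ligand of Ptprz1, had 2985, 3147, 2796 and 2998 normalized counts in aged Acsl6-/- libraries, against 2428, 2736, 2288 and 2163 in young Acsl6-/- libraries, and 3422, 3132, 2821 and 3079.7 in aged control libraries, against 2115, 2122, 2134 and 1993 in young control libraries. It rose by 0.31 in Acsl6-/- mice (adjusted p = 0.00161) and by 0.57 in control mice (adjusted p = 4.26e-06) on the log2 scale, and the groups of each genotype did not overlap by age. Neurocan (Ncan), a relative of versican, fell by 0.83 in Acsl6-/- mice (adjusted p = 6.64e-06) and by 0.53 in control mice (adjusted p = 0.000335). Adamts4, a protease that cuts such proteoglycans, fell by 0.25 in Acsl6-/- mice and by 0.37 in control mice. Neu2, a sialidase like Neu4, was at 4.46 to 8.81 normalized counts in aged Acsl6-/- libraries, against 18.3 to 22.5 in young Acsl6-/- libraries. It changed by -1.40 there (adjusted p = 0.000914) and by -0.44 in control mice (adjusted p = 0.22). Few reads stand behind these values.

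Of 12 regulators that hold back precursor differentiation, 2 were called higher and 3 lower with age in Acsl6-/- mice (23.2% of all genes called). For control mice the counts were 1 higher and 3 lower (31.3% of all genes). Id4, an inhibitor of basic helix-loop-helix factors, rose by 0.37 in Acsl6-/- mice (adjusted p = 6.89e-05) and by 0.47 in control mice (adjusted p = 4.50e-06), while its relative Id2 fell by 0.27 in Acsl6-/- mice and by 0.28 in control mice on the log2 scale. Without the libraries high in Ttr, 2 of the 12 were higher and 2 lower in Acsl6-/- mice and 2 higher and 1 lower in control mice. Lingo1, a neuronal and glial receptor that limits myelination, fell by 0.65 in Acsl6-/- mice and by 0.69 in control mice. Of 33 cell cycle genes listed, 24 were tested, as the others, among them Top2a and Cdk1, were not found. With age 4 were called higher and 2 lower in Acsl6-/- mice, where 23.2% of all genes were called. Counts in control mice were 2 higher and 1 lower, where 31.3% of all genes were called. Division of the precursors was not tested. Without the 5 libraries high in Ttr the counts of this list were 4 higher and 3 lower in Acsl6-/- mice and 1 higher and 2 lower in control mice. Mcm6, a subunit of the replication helicase, was at 166 to 189 normalized counts in aged Acsl6-/- libraries, against 70.4 to 107 in young Acsl6-/- libraries, and at 143 to 196 in aged control libraries, against 58.2 to 92.2 in young control libraries. Cyclin D1 (Ccnd1) was at 276 to 404 in aged Acsl6-/- libraries, against 569 to 707 in young Acsl6-/- libraries, and at 299 to 352 in aged control libraries, against 469.7 to 701 in young control libraries, so genes of this list moved in opposite directions. Across the lists of other precursor, committed, mature, growth factor, partner, restraining and cell cycle genes, 0 genes were called between genotypes at either age and 0 for the interaction.

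Genes of some other cell types of the cerebellum also moved with age. All 10 microglia genes were called higher in both genotypes, with a summed level of 4480 to 5969 normalized counts in aged Acsl6-/- libraries, against 2171 to 2603 in young Acsl6-/- libraries, and 3852 to 4301 in aged control libraries, against 1769 to 2212 in young control libraries. Of 11 granule cell genes, 9 were called lower in Acsl6-/- mice and 10 in control mice, with none higher. Over all tested genes 23.2% and 31.3% were called. Of 9 Purkinje cell genes 1 was higher and 1 lower in Acsl6-/- mice, and 0 were called in control mice. Of 9 endothelial genes 1 was higher and 1 lower in each genotype. Of 7 interneuron genes 1 was higher and 2 lower in Acsl6-/- mice, and 1 higher and 1 lower in control mice. No choroid plexus gene was called. None of the genes in these lists was at 0 in any library. The part of such shifts in the levels of the precursor genes, or of Fyn and the other genes of the lineage lists, was not tested.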

How the data were processed

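Poly(A) RNA-Seq libraries of mouse cerebellum were made by the study and sequenced as paired reads on 1 Illumina HiSeq lane. Per the study's methods and labels, Trimmomatic 0.36 was used for trimming, STAR 2.5.2b for alignment to GRCm38 and featureCounts for unique reads over the exons of each gene. The signal the authors deposited is the normalized count, that is, the gene's reads divided by a size factor particular to the library. The strand used for counting and the filter that left 17074 genes, with a lowest mean of 9.31, are not given in the sources used here. Every value of all 16 libraries (100%) was a whole number of steps of 1 size, to within 0.001, and dividing by the step gave whole reads. GEO's labels number the libraries 1 to 4 but do not say that each is a separate animal, so p-values measure the spread between libraries.

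Tests used log2(normalized count + 1) of the 17042 genes that averaged 10 or more. The tool was limma 3.58.1 in R 4.3.3, with a variance trend on the mean, 1 fit for all 4 groups, two-sided p-values and Benjamini-Hochberg adjustment. The step was tested on simulated data. Named genes are the 10 members, Acsl6 and, in each list reported, up to 3 genes per direction with the smallest p among those called. The 5 genes most correlated with Pdgfra and the genes leading the astrocyte sum were also named. Outside this rule, Pdgfa (for its role as ligand), Lims2 (for its overlap with Gpr17), Ttr and Gm42418 were named after their values were seen. The members and lists were chosen with earlier results of these data known. Gene positions and exon lengths came from GENCODE annotation of GRCm38. Alternatives were a pseudocount of 5, no filter, a mean of at least 50, TMM rescaling, quantile normalization, only the groups compared, a replicate block, array weights, leaving out the 5 libraries with Ttr above 5000, leaving out each library, and edgeR 4.0.16 and DESeq2 1.42.0 on recovered reads. Other members of the lists that did not match the table were not used here.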

Additional observations from a re-analysis of the deposited data

Results flagged for a closer look

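In 40 sets of 4 libraries (10 members in 4 groups), 2 held a library far from its 3 companions by Dixon's test, and chance flags about 1 in 20 such sets. Tnr stood at 3774 normalized counts in aged control 2, against 2576 to 2759 in the other 3 aged control libraries. Cspg4 stood at 255 in aged control 3, against 223 to 225 in the other 3.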

How the results depend on the processing

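Over 50 member results (10 genes in 5 comparisons) and 1340 alternative values, 1331 stayed on the same side of the threshold, 8 passed it where the main value had not, 1 lost it and 0 changed sign after being called. With each library left out in turn, the members called ranged from 0 to 1 for genotype at 2 months (Tnr), stayed at 0 for genotype at 18 months and for the interaction, and ranged from 4 to 5 for age in Acsl6-/- mice and for age in control mice. Without the 5 libraries high in Ttr 4 members were called for age in Acsl6-/- mice and 3 for age in control mice. Calls over all genes moved more than those of the members: 227 genes were called by DESeq2 and 13 without the libraries high in Ttr for genotype at 2 months, where the main analysis called 36, 164 by DESeq2 and 16 with only the groups compared for genotype at 18 months, where it called 41, and 87 by DESeq2 and 0 without the libraries high in Ttr for the interaction, where it called 3. For age in control mice 2789 genes were called without the libraries high in Ttr, where the main analysis called 5333. The cause was not tested. edgeR called 3969 genes for age in Acsl6-/- mice and 5393 for age in control mice.

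With the replicate block, 4 members were called for age in Acsl6-/- mice, 4 for age in control mice and 0 in the 3 other comparisons, so no member call changed. No pairing of libraries by replicate number was seen. In 4 comparisons of 4 pairs each, the deviations of same-numbered libraries correlated at -0.20 to 0.12. In no comparison did every library correlate best with its own number, though a weak pairing could be missed with so few pairs.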
